A study of Mus musculus with 11 samples.

Results

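Atypical memory B cells, also called age-associated B cells, are antigen-experienced B cells that carry the integrin CD11c and the transcription factor T-bet. Genes tied to these cells or to long-lived B cells, Tbx21, Zeb2, Itgax, Fcrl5, Zbtb32, Zbtb20, Tox, Cxcr3, Bhlhe41 and Ski, were looked up by the Ensembl identifiers of their mouse symbols, and all 10 were found among the 48795 genes of the expression table. RNA was measured in 11 libraries of B cells sorted from the spleens of female C57BL/6 mice, 8 to 12 weeks old, on day 10 after intravenous immunization with sheep red blood cells (SRBC). Light zone (LZ) germinal center B cells (B220+ CD138neg IgDneg CD38neg Fas+ CD86high CXCR4low) came from 4 Myc WT mice, numbered 1 to 4, and from 4 Myc V394D (Myc VD) mice, numbered 5 to 8. Memory B cells (MBC; B220+ CD138neg IgDneg CD38+ CD273+) came from Myc WT mice 1, 3 and 4, so that both cell types of these mice share an animal. Myc VD mice carry, at the endogenous Myc locus and in every cell, a MYC with aspartic acid in place of a valine, which no longer binds MIZ1 but still binds MAX. Cells that carry CD43 were removed with magnetic beads before all sorts, MBCs of Myc VD mice were not analysed here, and the title codes of the Myc VD mice differ from those of the Myc WT mice, so genotype and whatever these codes mark cannot be told apart. By the same codes Myc WT mouse 4 differs from mice 1 to 3.

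T-bet, the product of Tbx21, is a T-box factor that is induced in B cells by interferon-γ, IL-21 and signals through Toll-like receptors 7 and 9, and it drives Cxcr3, which directs cells to sites of interferon. ZEB2 is a zinc finger repressor that binds E-box motifs and is needed for the CD11c+ program of B cells, in which Itgax encodes the CD11c chain itself and Fcrl5 encodes an Fc receptor-like protein that dampens signaling of the B cell receptor. Zbtb32 and Zbtb20 encode BTB zinc finger repressors that act in memory and plasma cells, Tox a high-mobility group factor best known from exhausted T cells, Bhlhe41 a basic helix-loop-helix repressor of B-1a and memory B cells, and Ski a corepressor that holds SMAD proteins inactive.

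Values are TPM, the authors' estimate of each gene's transcripts corrected for length, as a share of a total that is equal in all libraries. The depth of sequencing cannot be read from them, and where 0 is listed the estimate may have failed. Each library held 11527 to 19537 genes above 0, with 35.7 to 44.5% of TPM in ribosomal RNA in Myc WT LZ, 44.1 to 61.3% in Myc VD LZ and 36.1 to 37.5% in MBCs. Marker lists were summed in the sorted cells. Cd38 and Pdcd1lg2 (CD273) of the memory genes and Fas of the germinal center genes encode markers of the sorts. The sums are therefore no independent check of the sorts. The 7 memory genes summed to 52.1 to 62.3 TPM in Myc WT LZ, 20.0 to 55.7 TPM in Myc VD LZ and 570 to 738 TPM in MBCs, and the 8 germinal center genes to 1293 to 1565, 1109 to 1569 and 328 to 446 TPM. Unlike the memory sum, the memory gene Nt5e overlapped, at 9.42, 6.80 and 11.47 TPM in MBCs and 10.79 to 13.37 TPM in Myc WT LZ. Genes of naive follicular B cells (4 genes) summed in MBCs to 762 to 881 TPM against 216 to 236 TPM in Myc WT LZ. In bulk RNA, fewer cells of a type and less RNA per cell cannot be told apart. Nothing says that the mice were immunized on separate days, so p-values measure the spread between these mice and libraries only.

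The regions just upstream of Bhlhe41, Fcrl5 and Zeb2, which were called higher in MBCs under every alternative tried, are shown for their sequence context, as RefSeq gives them for GRCm38.p6, up to the first base of the gene in GENCODE or, for Zeb2, in RefSeq, where it lies further upstream. Capitals mark the E-box CACGTG, which MYC, MAX and BHLHE41 bind, and the E-box CACCTG or its other strand CAGGTG, which ZEB2 binds.
Bhlhe41, chr6:145865559-145865670, minus strand: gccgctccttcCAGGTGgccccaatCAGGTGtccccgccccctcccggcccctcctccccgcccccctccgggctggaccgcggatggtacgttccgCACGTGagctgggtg
Fcrl5, chr3:87435532-87435772, plus strand: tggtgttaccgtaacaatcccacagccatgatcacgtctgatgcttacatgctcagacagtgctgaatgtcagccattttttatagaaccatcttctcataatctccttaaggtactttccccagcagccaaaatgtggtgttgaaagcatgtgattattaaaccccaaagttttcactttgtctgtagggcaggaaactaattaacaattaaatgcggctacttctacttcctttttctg
Zeb2, most upstream start, chr2:45117443-45117692, minus strand: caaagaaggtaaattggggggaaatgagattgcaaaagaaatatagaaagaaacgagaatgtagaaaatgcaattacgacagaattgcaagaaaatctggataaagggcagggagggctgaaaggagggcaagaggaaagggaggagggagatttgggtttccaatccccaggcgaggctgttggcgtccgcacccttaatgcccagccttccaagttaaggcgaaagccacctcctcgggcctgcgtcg
The Bhlhe41 stretch held CACGTG 153 bases before the RefSeq start and CAGGTG 239 and 225 bases before it, and the stretches of Fcrl5 and Zeb2 held neither motif. In the 250 bases before the start, searched on both strands, CACGTG was found in 6.02% and CACCTG in 17.2% of 32851 RefSeq promoters, and the T-box motif TCACACC in 3.33%. Of the genes described here 9 had a promoter entry, 13 promoters in all. Beside Bhlhe41, CACCTG was found on either strand before Tbx21 (196 bases) and Cxcr3 (116 bases), and TCACACC before none of the 9. A match is a description of these letters, not a binding site.

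To ask which genes of atypical memory distinguish MBCs from LZ B cells in Myc WT mice, both cell types were compared. Zeb2, Fcrl5, Bhlhe41 and Cxcr3 were higher in MBCs, whereas Tbx21, whose product names the T-bet+ cells, was near 0 in both cell types. Tox lay lower and Zbtb20 higher in MBCs without overlap, but neither passed the adjusted threshold, and Ski, Itgax and Zbtb32 varied widely between MBC libraries. Of the 10 genes, 8 averaged at least 1 TPM in this comparison, of which 4 were higher and 0 lower at an adjusted p of 0.05 (limma on log2(TPM + 1), Benjamini-Hochberg adjustment over 13245 genes), and 7 had an unadjusted p under 0.05 (27.1% of all genes). Over all genes tested, 4.17% were higher and 5.04% lower. Bhlhe41, Cxcr3 and Ski reached the minimum through MBCs alone, so their count is a description and not support. The median difference of all genes was -0.14 on the log2 scale, and that of the 10 genes was 1.55.

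**Figure D1:**
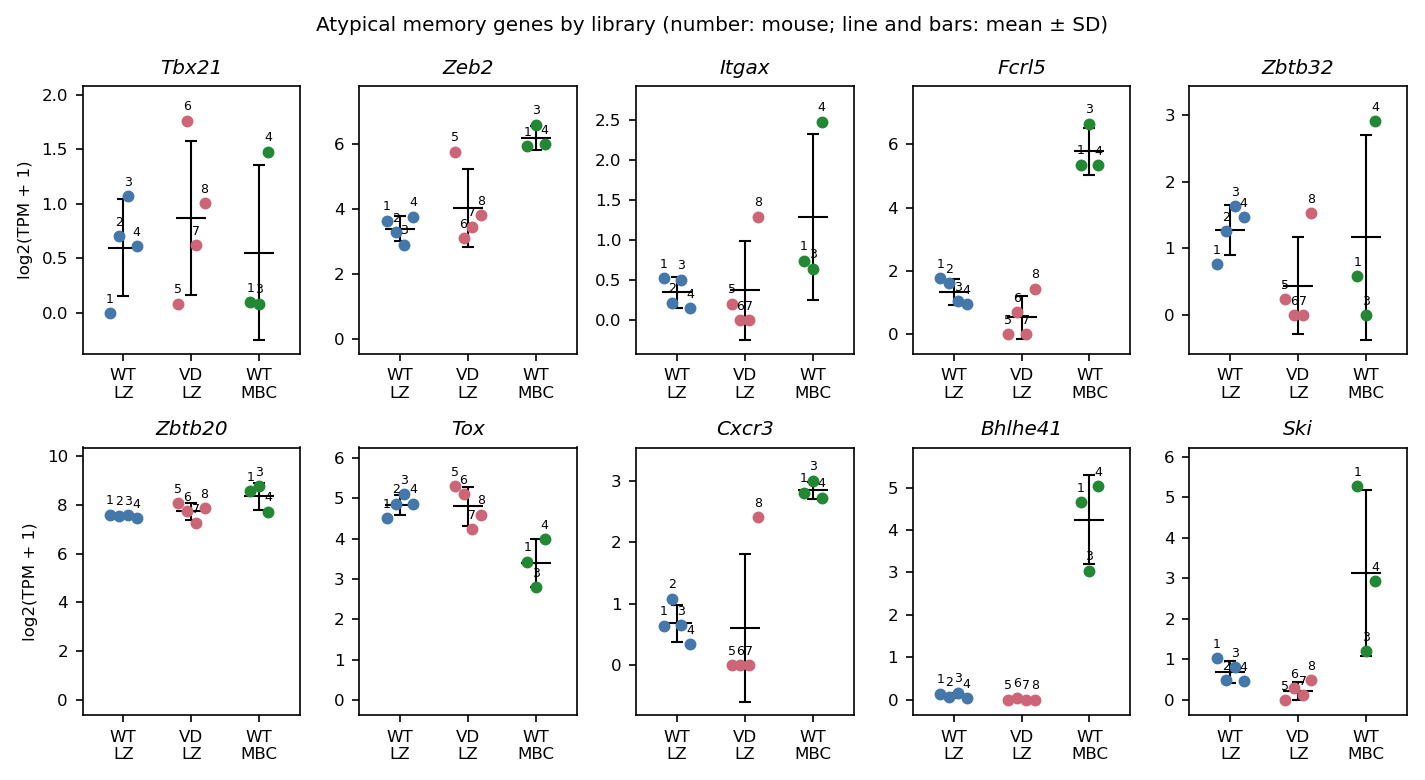
Level of each of the 10 genes as log2(TPM + 1) in Myc WT LZ (blue, n = 4), Myc VD LZ (red, n = 4) and Myc WT MBC (green, n = 3), 1 point per library with the number of its mouse, and the mean with SD in black. Zeb2, Fcrl5, Bhlhe41 and Cxcr3 sit higher in every MBC library than in any LZ library of Myc WT, and Tbx21 overlaps between all groups.

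Tbx21 (ENSMUSG00000001444, chromosome 11, 97098071 to 97115331 of GRCm38) was at 0.00, 0.63, 1.10 and 0.53 TPM in LZ B cells of Myc WT mice 1 to 4, and at 0.07, 0.06 and 1.78 TPM in MBCs of mice 1, 3 and 4. Two-sided exact permutation of the 35 groupings gave p = 0.886 for the difference of -0.04 in mean log2(TPM + 1). Its mean was below 1 TPM, so it was not tested with limma. The groups overlapped, and only the MBC library of mouse 4 exceeded 0.1 TPM among MBCs. T-bet's relative Eomes was listed at 0 in all 4 Myc WT LZ libraries and at 0.00, 0.00 and 0.28 TPM in MBCs.

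Zeb2 (ENSMUSG00000026872, chromosome 2, 44983632 to 45117395) was at 11.46, 8.67, 6.42 and 12.58 TPM in Myc WT LZ and at 60.41, 96.08 and 62.57 TPM in MBCs. The lowest MBC library lay well above the highest LZ library. The mean was 7.46 times that of LZ, and the log2 difference was 2.79 (standard error, SE, 0.36, limma adjusted p = 0.0039) or 2.93 above the all-gene median. Its paralog Zeb1 was at 42.6 ± 5.21 TPM (SD, n = 4) in LZ and 78.1 ± 52.7 TPM (SD, n = 3) in MBCs, with an adjusted p of 0.321 from limma. Zeb2os, transcribed from the opposite strand of the Zeb2 locus, was at 0.00 to 3.41 TPM over all libraries, and the authors counted by strand.

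Fcrl5 (ENSMUSG00000048031, chromosome 3, 87435773 to 87500678) was at 2.39, 2.04, 1.04 and 0.91 TPM in Myc WT LZ and at 39.97, 99.64 and 39.45 TPM in MBCs. All MBC libraries stood more than an order of magnitude above the highest LZ library, and the log2 difference of 4.45 (SE 0.50, limma adjusted p = 0.0024) was the largest of the 8 genes tested on this scale. With a pseudocount of 0.1 that of Bhlhe41 was larger (6.73 against 5.10), as it was without ribosomal RNA genes (4.71 against 4.62) and without the MBC library of mouse 3 (4.74 against 4.02). Fcrl1, its neighbor 32839 bases away, did not pass the test (98.7 ± 14.7 TPM in LZ, SD, n = 4, and 131 ± 68.5 TPM in MBCs, SD, n = 3; limma adjusted p = 0.645). Fcrla and Fcgr2b, further relatives that bind or sense immunoglobulin, had adjusted p-values of 0.398 and 0.960.

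Bhlhe41 (ENSMUSG00000030256, chromosome 6, 145858243 to 145865558) was at 0.10, 0.05, 0.12 and 0.02 TPM in Myc WT LZ and at 24.12, 7.24 and 31.83 TPM in MBCs. It was thus close to 0 in every LZ library and clearly measured in every MBC library, with a log2(TPM + 1) difference of 4.14 (SE 0.59, limma adjusted p = 0.0055). Bhlhe40, its closest relative, was at 12.6 ± 2.89 TPM (SD, n = 4) in LZ and 28.9 ± 14.1 TPM (SD, n = 3) in MBCs, with an adjusted p of 0.165 from limma.

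Cxcr3 (ENSMUSG00000050232, chromosome X, 101731535 to 101734269) was at 0.56, 1.12, 0.57 and 0.27 TPM in Myc WT LZ and at 5.99, 7.01 and 5.6 TPM in MBCs, the tightest MBC values of the called genes. The log2 difference was 2.16 (SE 0.47, limma adjusted p = 0.0253). Cxcr3 lost this call without any one of the 4 LZ libraries, with adjusted p-values from 0.0807 without mouse 1 to 0.102 without mouse 3. With the mouse as a replicate block its adjusted p was 0.211, while Fcrl5 (0.0178), Zeb2 (0.0416) and Bhlhe41 (0.0495) stayed past the threshold in limma.

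Tox (ENSMUSG00000041272, chromosome 4, 6686353 to 6991557) was the gene that lay lower in MBCs, at 9.72, 5.93 and 14.87 TPM against 21.62, 28.10, 33.25 and 28.18 TPM in Myc WT LZ. The groups did not overlap, but the log2 difference of -1.43 (standard error 0.39) had an adjusted p of 0.0547 in limma. Its adjusted p was 0.0176 without the MBC library of mouse 4 and 0.0333 with TPM rescaled by the median ratio, but 0.110 to 0.177 without single LZ libraries and 0.301 with the replicate block. Its relative Tox2 fell from 4.97 ± 1.5 TPM (SD, n = 4) in LZ to 0.00, 0.00 and 0.07 TPM in MBCs, with a log2(TPM + 1) difference of -2.51 (SE 0.48, limma adjusted p = 0.0164).

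Zbtb20 (ENSMUSG00000022708, chromosome 16, 42875881 to 43642602) was by far the most abundant of the 10 genes per length, at 190.43, 185.67, 188.92 and 174.06 TPM in Myc WT LZ and at 373.07, 433.55 and 208.46 TPM in MBCs. The log2 difference was 0.80 (SE 0.27, limma adjusted p = 0.0923), and without the MBC library of mouse 4, which lay closest to LZ, it was 1.12 (adjusted p = 0.0091), while the replicate block gave an adjusted p of 0.263. The locus holds the pseudogene Gm15711 on the same strand, at up to 38.33 TPM. Zbtb32 (ENSMUSG00000006310, chromosome 7, 30589681 to 30598909) was at 0.70, 1.39, 2.10 and 1.77 TPM in Myc WT LZ and at 0.50, 0.00 and 6.56 TPM in MBCs. The MBC libraries lay on both sides of the LZ libraries (log2 difference -0.11, SE 0.73, limma adjusted p = 0.940).

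Ski (ENSMUSG00000029050, chromosome 4, 155154075 to 155222592) was at 1.04, 0.41, 0.75 and 0.38 TPM in Myc WT LZ and at 37.83, 1.3 and 6.63 TPM in MBCs. All MBC libraries were above the LZ libraries, yet they differed among themselves so much that the log2 difference of 2.44 had a standard error of 0.87 and an adjusted p of 0.113 in limma. The difference was 3.41 without the MBC library of mouse 3, the lowest (limma adjusted p = 0.0199), 1.37 without that of mouse 1, the highest (0.184), and 2.37 with the replicate block (0.263). Itgax (ENSMUSG00000030789, chromosome 7, 128129547 to 128150657) was at 0.44, 0.16, 0.42 and 0.11 TPM in Myc WT LZ and at 0.67, 0.56 and 4.59 TPM in MBCs. Its mean of 0.993 TPM over these libraries fell just under the minimum for limma. The groups did not overlap, and the exact permutation p of 0.0286 for the difference of 0.94 in mean log2(TPM + 1) is the smallest that 3 libraries against 4 can give. Without the MBC library of mouse 4 the difference was 0.34.

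Of the 10 genes, 7 (Zeb2, Fcrl5, Bhlhe41, Cxcr3, Ski, Zbtb20 and Itgax) were higher and 1 (Tox) lower in every MBC library than in any Myc WT LZ library, and 2 overlapped. Over all genes tested 11.8% were higher and 14.4% lower without overlap. Itgax was not among the genes tested, and Bhlhe41, Cxcr3 and Ski reached the minimum through MBCs alone, so this count too is a description and not support. Of the 20 protein-coding genes next to the 10 genes, 12 were tested and 0 passed the adjusted threshold in limma, with 3 at an unadjusted p under 0.05, against 27.1% of all genes.

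**Figure D2:**
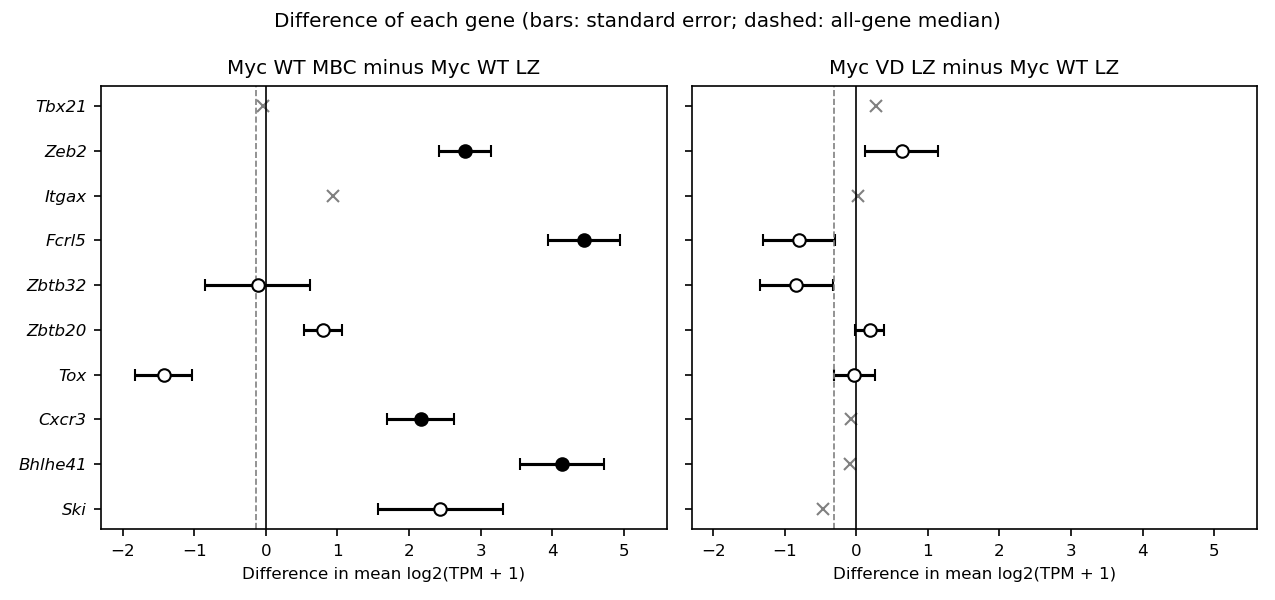
Difference in mean log2(TPM + 1) of the 10 genes between Myc WT MBC and Myc WT LZ (left) and between Myc VD LZ and Myc WT LZ (right), with standard errors from limma; filled points passed an adjusted p of 0.05, open points did not, and grey crosses mark genes under the minimum mean of 1 TPM. On the left 4 genes are filled and 0 on the right, and the dashed line shows the all-gene median, -0.14 on the left and -0.31 on the right.

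The MBC library of mouse 4 held the highest MBC values of Tbx21, Itgax, Zbtb32, Bhlhe41 and Tox and the lowest of Zbtb20, Fcrl5 and Cxcr3. Of the MBC libraries it also held the most RNA of myeloid, T and NK cell markers. It had the most genes above 0 as well, 16040 against 12983 and 11527 in mice 1 and 3. The 10 myeloid and dendritic genes summed to 241.69 TPM in this library, against 81.2 and 53.8 TPM in the MBC libraries of mice 1 and 3 and 16.3 to 21.6 TPM in Myc WT LZ. Lyz2, the lysozyme of myeloid cells, was at 0.15, 31.16 and 135.59 TPM in MBCs of mice 1, 3 and 4. The 6 T cell genes and the 6 NK cell genes were without exception at 0 in MBCs of mice 1 and 3, whereas they summed to 12.7 and 6.56 TPM in that of mouse 4, in which 6 of 6 T cell and 4 of 6 NK cell genes were above 0. The part of these cells in the values of Tbx21, Itgax, Zbtb32, Tox, which T cells also express, and Zeb2, which myeloid cells also express, was not tested. Nor was the part of the number of genes detected in these values and in the zeros of mice 1 and 3. Without the library of mouse 4 Zeb2, Fcrl5, Bhlhe41 and Cxcr3 all passed the adjusted threshold, as did Tox and Zbtb20.

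**Figure D3:**
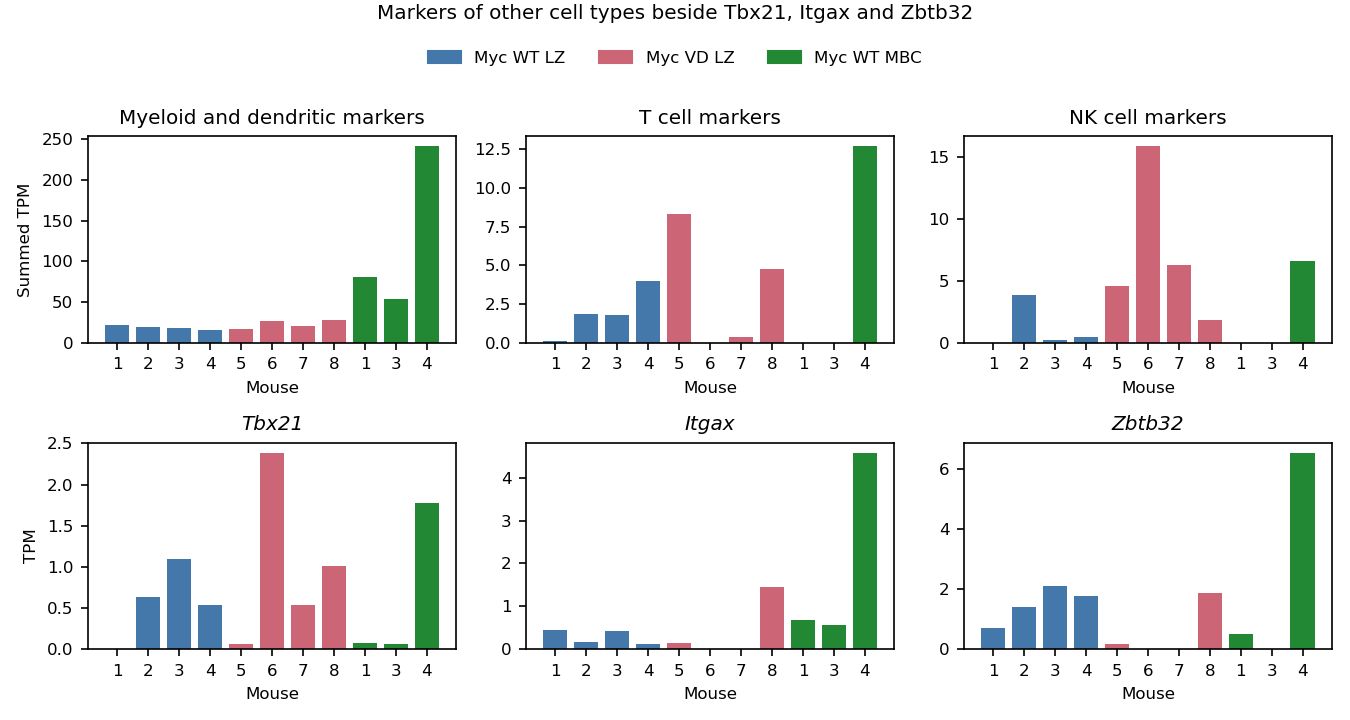
Summed TPM of the markers of myeloid and dendritic, T and NK cells (top) and TPM of Tbx21, Itgax and Zbtb32 (bottom) in each library, named by mouse and coloured by group. The MBC library of mouse 4 holds 241.69 TPM of myeloid and dendritic markers and the highest Itgax (4.59 TPM) and Zbtb32 (6.56 TPM), and Tbx21 is highest in the Myc VD library of mouse 6 (2.39 TPM), which also has the most NK marker RNA (15.8 TPM, of which Gzma makes up 13.18 and Eomes 2.20 TPM, while Nkg7, Prf1 and Ncr1 are listed at 0).

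B-1a cells are known to express Bhlhe41, and marginal zone and B-1 cells Fcrl5. The 7 genes of these cells summed to 187 to 214 TPM in Myc WT LZ and to 217, 420 and 342 TPM in MBCs of mice 1, 3 and 4. Most of each sum was Cr2, the complement receptor CD21. Cd5, a defining B-1a gene, was at 0.09, 0.77 and 0.15 TPM in MBCs and at 0.00 to 0.63 TPM in Myc WT LZ. Spn, which encodes CD43 and also marks B-1 cells, was at 8.49, 13.69 and 20.19 TPM in MBCs and at 1.64 to 4.26 TPM in Myc WT LZ, without overlap. Cd1d1, a marginal zone gene, was at 0.53, 75.04 and 9.66 TPM, highest in the library of mouse 3 that also held the most Fcrl5 and the least Bhlhe41. The beads against CD43 used before the sorts are meant to remove cells that carry it, B-1 cells among them. The part of B-1 and marginal zone cells in the values of Bhlhe41 and Fcrl5 was not tested.

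To place these genes in their families and in the pathway of T-bet, 44 related genes were examined in the same comparison. Of the 40 that could be tested, 12 were higher and 1 was lower in MBCs at an adjusted p of 0.05 (limma), where 4.17% of all genes were higher and 5.04% lower. Of these, Ccr7, Cd80 and Itgam reached the minimum of 1 TPM through MBCs alone, so the count is a description and not support. Their median log2(TPM + 1) difference was 0.56 over all 44, against -0.14 for all genes tested. With the mouse as a replicate block 3 of them, Ccr6, Ccr7 and Tlr7, were called, and without single LZ libraries 5 or 6. Over all genes the block called 130 higher and 118 lower of 13151. Without single LZ libraries 205 to 254 of all genes were called higher and 137 to 265 lower.

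Of 10 receptors and signal transducers linked to the control of T-bet, 4 were higher and 0 lower in limma. Over all genes tested, 4.17% were higher and 5.04% lower. Tbx21 itself was near 0. Tlr7, the sensor of single-stranded RNA, was at 0.82 to 1.40 TPM in Myc WT LZ and at 35.65, 49.41 and 52.54 TPM in MBCs, a log2 difference of 4.43 (SE 0.42, limma adjusted p = 0.0015). Stat4, a transducer of IL-12, rose from 3.59 ± 1.00 TPM (SD, n = 4) to 36.3 ± 32.4 TPM (SD, n = 3; limma adjusted p = 0.0253). Ifngr1, a chain of the receptor for interferon-γ, rose by 1.02 on the log2 scale (limma adjusted p = 0.0355). Tlr9, Ifngr2, Il21r, Il4ra, Il12rb1 and Stat3 did not pass the test.

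The chemokine receptors Ccr6 and Ccr7 were higher in MBCs, and Cxcr5, the follicle-homing receptor, did not pass (limma adjusted p = 0.0939). Ccr6, which is also 1 of the 7 memory markers, was at 3.0 to 5.83 TPM in Myc WT LZ and at 196.12, 201.39 and 135.93 TPM in MBCs, a log2 difference of 5.01 (SE 0.34, limma adjusted p = 3.12e-04). Ccr7 rose from 0.31 to 1.37 TPM in LZ to 21.35, 18.83 and 33.00 TPM in MBCs. Both differences exceeded that of Cxcr3.

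Among the partners of CD11c, Itgam, which encodes the related integrin chain CD11b, was at 0.00 to 0.12 TPM in Myc WT LZ and at 3.84, 5.12 and 9.18 TPM in MBCs (log2 difference 2.66, SE 0.49, limma adjusted p = 0.0137). Of the 10 myeloid and dendritic genes, 2 (Lyz2 and Adgre1) had the same order over the MBC libraries as Itgam, 5 (Fcer1g, Csf1r, Cd14, Zbtb46 and Siglech) were lower in mouse 3 than in mouse 1, 1 (Flt3) was highest in mouse 3, and 2 were listed at 0 in both of these mice. Fcer1g made up 53.76 of the sum of 81.19 TPM in mouse 1. The part of myeloid cells in the value of Itgam was not tested. Itgal, the chain of LFA-1, rose from 45.1 ± 9.33 TPM (SD, n = 4) to 102 ± 2.93 TPM (SD, n = 3; limma adjusted p = 0.0265). Itgb2, the β chain that pairs with CD11a, CD11b and CD11c, was at 60.3 ± 9.5 TPM (SD, n = 4) and at 45.26, 311.25 and 76.34 TPM in MBCs, which did not pass (limma adjusted p = 0.417).

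Of 8 genes named for age-associated B cells, 3 were higher and 0 lower in limma, where 4.17% of all genes were higher and 5.04% lower. Cd80, a costimulatory ligand and memory marker, was at 0.41 to 0.78 TPM in LZ and at 19.20, 26.78 and 4.47 TPM in MBCs (limma adjusted p = 0.0186). Runx3 was at 3.37 to 7.6 TPM and at 48.52, 55.63 and 22.77 TPM (log2 difference 2.71, limma adjusted p = 0.0104). Fcer2a, which encodes CD23, is known to be low on age-associated B cells, yet it rose from 185.29 to 212.90 TPM in LZ to 480.33 to 531.48 TPM in MBCs (limma adjusted p = 0.0037). It is also 1 of the 4 naive follicular genes. Cr2, likewise low on age-associated B cells, was at 144 ± 10.2 TPM (SD, n = 4) in LZ and 202 ± 48.8 TPM (SD, n = 3) in MBCs (limma adjusted p = 0.242). Sox5, a factor found in atypical B cells, was at 7.59 to 24.76 TPM in LZ and at 6.85, 2.15 and 4.14 TPM in MBCs, without overlap (log2 difference -1.33, SE 0.56, limma adjusted p = 0.165). Cd72, Runx2 and Lgals1 overlapped between the groups, with adjusted p-values of 0.728, 0.184 and 0.845.

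Of 6 partners of Ski and Zeb2 in TGF-β signaling, Tgfbr2 alone was called, rising by 1.12 on the log2 scale (limma adjusted p = 0.0300). Of 10 family relatives, Tox2 alone was called. These counts stand beside 4.17% of all genes higher and 5.04% lower. Zbtb17, the gene of MIZ1 and a BTB zinc finger gene like Zbtb20 and Zbtb32, was at 2.22 to 4.78 TPM in Myc WT LZ and at 1.08, 8.35 and 5.59 TPM in MBCs (limma adjusted p = 0.960).

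**Figure D4:**
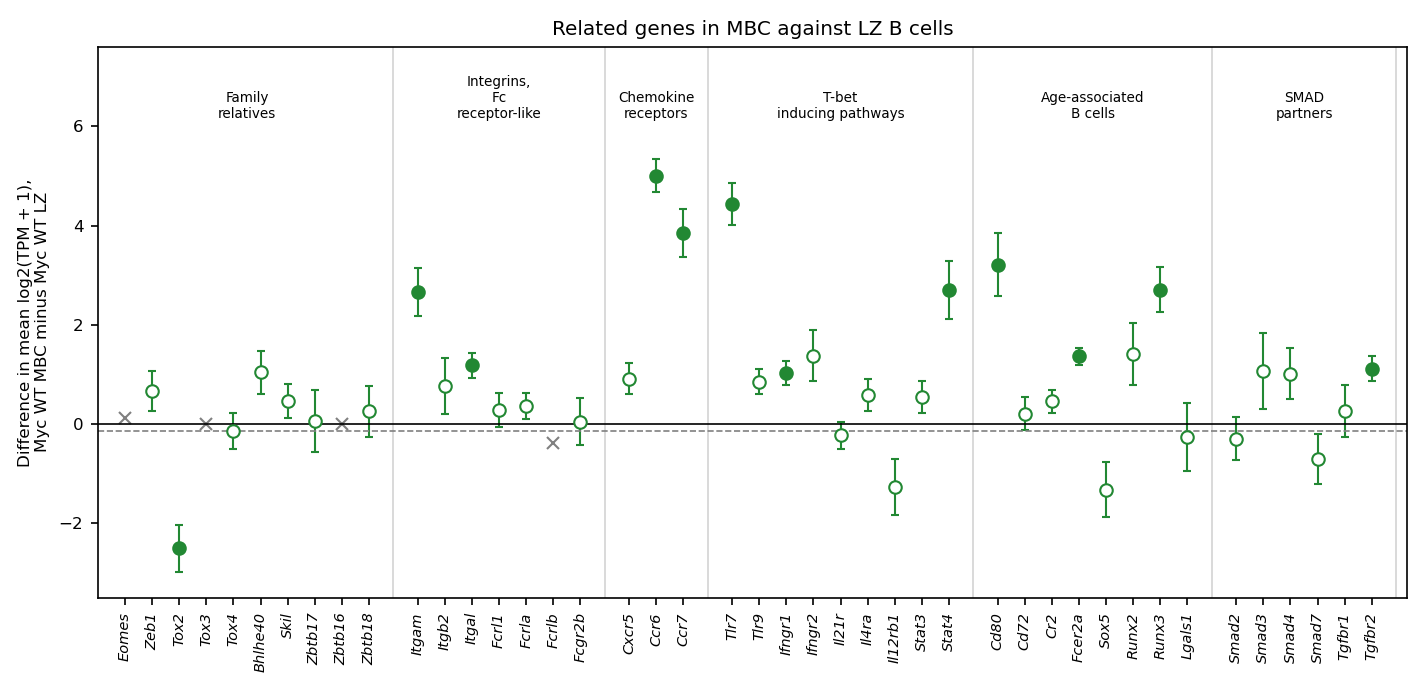
Difference in mean log2(TPM + 1) of the related genes between Myc WT MBC and Myc WT LZ, by list, with standard errors from limma; filled points passed an adjusted p of 0.05, grey crosses were under the minimum mean, and the dashed line is the all-gene median of -0.14. Ccr6 (5.01), Tlr7 (4.43) and Ccr7 (3.85) are the highest, and Tox2 (-2.51) is the lowest.

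To ask whether the loss of MYC–MIZ1 binding moved these genes in LZ B cells, the genotypes were compared. For none of the 10 genes did the difference between genotypes pass a test. Of the 10 genes 5 averaged at least 1 TPM, and 0 of them passed the adjusted threshold in limma or an unadjusted p under 0.05. By exact permutation of the 70 groupings 0 of the 10 had p under 0.05, and the lowest p was 0.0571, where 0.0286 is the smallest possible. Over all 12869 genes tested, 0.00777% were higher and 0.0389% lower. All 10 genes overlapped between the genotypes, whereas 0.816% of all genes were higher and 9.16% lower without overlap. The all-gene median was -0.31, and differences of the tested genes are therefore also given relative to it. With TPM rescaled by the median ratio that median was -0.01.

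Zeb2 was at 53.32 TPM in Myc VD mouse 5 and at 7.59, 9.88 and 12.94 TPM in mice 6, 7 and 8, against 6.42 to 12.58 TPM in Myc WT. A single mouse thus stood apart and the others lay within or close to the Myc WT range. The log2 difference was 0.64 (SE 0.51, limma adjusted p = 0.550) or 0.94 relative to the all-gene median, and without mouse 5 it was 0.06 (standard error 0.33, adjusted p = 0.934). In the same library Fcrl5, Bhlhe41, Cxcr3 and Ski were listed at 0, the 7 memory genes summed to 55.7 TPM and the myeloid and dendritic genes to 17.5 TPM, both within the range of Myc WT LZ, and the T cell genes summed to 8.30 TPM against 0.11 to 4.0 TPM.

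Fcrl5 was at 0.00, 0.61, 0.00 and 1.70 TPM in Myc VD mice 5 to 8, a log2 difference of -0.80 (SE 0.50, limma adjusted p = 0.438) or -0.49 relative to the all-gene median. Zbtb32 was at 0.18, 0.00, 0.00 and 1.88 TPM, a log2 difference of -0.84 (SE 0.51, limma adjusted p = 0.425) or -0.53 relative to that median. With a pseudocount of 0.1 the differences of Fcrl5 and Zbtb32 were -2.23 and -2.45, with adjusted p-values of 0.363 and 0.334 in limma. Zbtb20 was at 264.64, 210.47, 150.80 and 231.03 TPM (log2 difference 0.18, SE 0.20, limma adjusted p = 0.667, 0.49 relative to the median and 0.53 after rescaling by the median ratio). The Myc VD libraries spread more widely than those of Myc WT in each of these genes. Tox was at 38.43, 33.15, 17.75 and 23.11 TPM, on both sides of Myc WT, with a log2 difference of -0.03 (SE 0.28, limma adjusted p = 0.970), 0.28 relative to the median, that turned positive on rescaling (0.30).

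The other 5 genes were under the minimum mean in LZ B cells and were compared by exact permutation only. Tbx21 was at 0.06, 2.39, 0.54 and 1.01 TPM in Myc VD (exact permutation p = 0.514). Its highest value, in mouse 6, stood beside the highest Eomes of any library (2.20 TPM), a gene that is also 1 of the 6 NK cell markers. Cxcr3 was listed at 0 in mice 5, 6 and 7 and was at 4.29 TPM in mouse 8, Itgax was at 0.15, 0.00, 0.00 and 1.45 TPM, and Bhlhe41 at 0.00, 0.03, 0.00 and 0.00 TPM (exact permutation p = 1.00, 0.971 and 0.0571). Ski was at 0.00, 0.22, 0.09 and 0.41 TPM (exact permutation p = 0.0857).

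Mouse 8 therefore held the highest Myc VD value of Cxcr3, Itgax, Zbtb32, Fcrl5 and Ski. Its library also had the highest share of ribosomal RNA (61.3%) and the highest myeloid and dendritic sum of the LZ libraries (27.5 TPM), and its T cell genes summed to 4.76 TPM. It held 16421 genes above 0, against 13169 to 14928 in the other Myc VD libraries. The part of these in the values of mouse 8 was not tested.

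Of the 44 related genes 37 were tested between genotypes and 0 passed the adjusted threshold in limma, with 3 at an unadjusted p under 0.05 (16.9% of all genes) and 3 at an exact permutation p of 0.0286. These last 3, Fcrla, Smad7 and Tgfbr1, were lower in every Myc VD than in any Myc WT library (adjusted p = 0.181, 0.321 and 0.253 from limma) and are named after their values were seen, where 9.16% of all genes were lower without overlap. Their log2 differences were -0.71, -1.04 and -0.65, or -0.40, -0.74 and -0.35 relative to the all-gene median. Il21r, also at an unadjusted limma p under 0.05, went the other way and overlapped. Its log2 difference was 0.50 (limma adjusted p = 0.277), or 0.81 relative to that median. Zbtb17 was at 3.66 ± 2.22 TPM (SD, n = 4) in Myc VD (limma adjusted p = 0.842), Bhlhe40 at 11.5 ± 2.94 TPM, Zeb1 at 47.8 ± 11.9 TPM and Itgb2 at 60.0 ± 33.5 TPM (SD, n = 4 each). None of these 4 passed the test.

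Both comparisons used the same Myc WT LZ libraries, so the levels of Myc VD LZ and of MBCs were set side by side. Zeb2, Fcrl5, Cxcr3, Bhlhe41 and Ski were lower in every Myc VD LZ library than in any MBC library, Tox was higher, and the other 4 genes overlapped. Over all 13131 genes that averaged at least 1 TPM in these libraries 12.5% were lower and 5.99% higher without overlap. Fcrl5, Bhlhe41 and Ski reached this minimum through MBCs alone, so the count is a description and not support. Zeb2 of mouse 5, at 53.32 TPM, came closest to the MBC range of 60.41 to 96.08 TPM.

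Over all 11 libraries, the levels most like that of Zeb2, by root mean square distance of standardized log2(TPM + 1) among 10112 other protein-coding genes, were those of Gpr183 (distance 0.321), Med12l (0.322) and Carmil1 (0.337). Gpr183, the oxysterol receptor EBI2 and 1 of the 7 memory markers, was at 6.30 to 12.07 TPM in Myc WT LZ, at 67.51, 67.02 and 56.12 TPM in MBCs and at 20.72 TPM in Myc VD mouse 5, against 3.28 to 10.70 TPM in the other Myc VD mice. Carmil1, a regulator of actin capping, was at 235.96, 118.22 and 67.62 TPM in MBCs, 2.05 to 6.21 TPM in Myc WT LZ and 45.49 TPM in Myc VD mouse 5. These genes were chosen for their likeness, which is a description over libraries that differ in cell type, with no test. Tbx21 had a mean of 0.743 TPM over all libraries, too low for this search.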

How the data were processed

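RNA of sorted mouse B cells was sequenced by the authors from total RNA with a Nugen cDNA kit on an Illumina HiSeq. Per the labels and the methods, reads were aligned with STAR 2.5.2a and quantified with RSEM 1.3.0 by strand on Ensembl transcripts of GRCm38. The authors deposited TPM with decimals in 1 table, in which all columns were mapped to libraries by their labels. The authors' own tests with DESeq2 needed counts that were not used here. TPM keep no depth, so precision was taken from the spread between libraries.

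Symbols and coordinates came from GENCODE M21 (48349 of 48795 genes). Groups were tested in R 4.3.3 by limma 3.58.1 (trend, only the compared groups) on log2(TPM + 1), a scale that understates changes of low genes, and a gene entered where it averaged 1 TPM or more in the fit, two-sided, with Benjamini-Hochberg adjustment at 0.05. The fit was tested on simulated data in which only highly expressed genes were changed, so that test does not cover genes near 0. For each of the 10 genes the difference in means was also set against all exact permutations (numpy 2.4.6, pandas 2.3.3, Python 3.11.15). The genes, the related genes and marker lists were chosen with earlier results of these data known. Beside the 10 genes, related genes past the threshold, Zbtb17, Bhlhe40, Eomes, Zeb1, Itgam and Itgb2, and the 3 genes most like Zeb2 were named by rule. Other related and marker genes were named after their values were seen, and 1 related gene is counted but not reported here by name.

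By the labels, MBC and LZ libraries with a shared number are of a single mouse. Over 13245 genes their deviations from the mean of their cell type over the shared mice had r = 0.00471, 0.00169 and -0.0350. Alternatives were a pseudocount of 0.1, no filter, rescaling by the median ratio, removal of 356 ribosomal RNA genes, no trend, a joint fit of the 3 groups, a replicate block for the mouse and each library left out.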

Additional observations from a re-analysis of the deposited data

Results flagged for a closer look

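In each group of 4 LZ libraries, a value was looked at again when its gap to the nearest other value took more of the group's range than the 95% critical value of Dixon's test. This held for 8 of 56 groups of values, all in Myc VD, and chance gives about 1 in 20 groups for continuous values. In 4 of the 8 (Cxcr3, Bhlhe41, Cd80 and Itgam) the other 3 values were listed at 0, so that any value above 0 would stand apart and this rate does not apply. Groups of 3, as the MBCs, were not examined.

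Myc VD mouse 5 stood apart by Zeb2, at 53.32 TPM against 12.94 TPM in the next mouse. Mouse 8 stood apart by Cxcr3 (4.29 TPM, 0 in the other mice), Zbtb32 (1.88 TPM, next 0.18), Itgax (1.45 TPM, next 0.15), Cd80 (0.46 TPM, next 0) and Itgam (0.21 TPM, next 0). Mouse 6 stood apart by Eomes (2.20 TPM, next 0.09) and by Bhlhe41 (0.03 TPM, 0 in the others). All but Zeb2 are values under 5 TPM, and the number of reads behind them is unknown.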

How the results depend on the processing

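Higher Zeb2, Fcrl5 and Bhlhe41 in MBCs kept their call in all 14 alternatives, with adjusted p-values of 0.0050 to 0.0416, 3.48e-04 to 0.0178 and 4.02e-04 to 0.0495 in limma. Cxcr3 kept its direction in all 14 and lost its call in 7, which were a pseudocount of 0.1 (adjusted p = 0.0504), no filter (0.0719), the replicate block (0.211) and each LZ library left out. The number of the 10 genes called was 3 to 6. The 13 related genes called became 3 with the replicate block, and 5 to 16 with single libraries left out, and the cause was not tested. Calls over all genes moved too, from 552 higher and 667 lower to 130 and 118 with the block. Without single LZ libraries they were 205 to 254 higher and 137 to 265 lower, and without single MBC libraries 571 to 924 and 581 to 1830. With all 3 groups in 1 fit Ski (adjusted p = 0.0479) and Tox (0.0295) were also called, and without ribosomal RNA genes Tox (0.0429), while the replicate block gave 0.263 for Ski and 0.301 for Tox.

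The difference of Zbtb32 in MBCs changed sign with the library left out (-0.99 to 0.47), and that of Tox in Myc VD with rescaling (0.30), without ribosomal RNA genes (0.28) and with the library left out (-0.19 to 0.16). None of these was called. Between genotypes 0 of the 10 genes and 0 related genes were called in any of the 14 alternatives. With a pseudocount of 0.1 the differences of Cxcr3, Bhlhe41 and Ski in Myc VD, which were not tested with limma, moved to -1.38, -0.65 and -1.56, and those of Fcrl5 and Zbtb32 to -2.23 and -2.45. Fcrl5 and Zbtb32 fell under the minimum mean in 3 and 5 of these alternatives and have no value there. TPM below about 1 are the least certain, and no depth is known to bound them. For the comparison of genotypes no paired analysis was possible because the genotypes are different mice.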
